A study of Mus musculus with 15 samples.

Results

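The circadian clock genes described here are Arntl (also called Bmal1), Clock, Per1, Per2, Per3, Cry1, Cry2, Nr1d1, Nr1d2 and Dbp. They were taken by name, as every array feature whose single gene symbol was 1 of these 10, which gave 18 features of the 34479 with values and 10 of the 16401 genes measured. Cortical RNA of adult female mice was measured on 15 one-colour Agilent arrays, with 5 arrays for each of 3 groups: SAMR1 kept sedentary, SAMP8 kept sedentary, and SAMP8 that exercised. SAMP8 is an inbred senescence-prone strain and SAMR1 the senescence-resistant strain kept as its control. All groups share sex, tissue and the broad age class, no exercised SAMR1 group was included, and arrays are labelled as biological replicates, with no statement of whether each held 1 animal. The sources used here do not give the kind or length of the exercise, or the time of day at which tissue was taken.

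The mammalian clock is a transcriptional feedback loop. ARNTL and CLOCK form a dimer that binds E-boxes and drives the Per and Cry genes, whose proteins return to the nucleus and repress that dimer. A further loop runs through Nr1d1 and Nr1d2 (REV-ERB alpha and beta), which repress Arntl through ROR elements, and DBP carries the rhythm to genes with D-boxes. In forebrain, as in most tissues, Arntl and the Dbp, Nr1d and Per transcripts peak at opposite times of day. Per1 is also an immediate early gene, switched on in neurons by calcium and cAMP signals through cAMP response elements (CREs).

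Letters of these motifs were sought in clock gene promoters, and windows that held a match are printed for 4 clock genes. RefSeq windows of build GRCm38.p6, from 250 bases before the gene start to 50 bases after it, are given 5′ to 3′ on the gene's strand, with motif matches in capitals. The windows are Per1 on chr11:69099902-69100201 (plus strand, its second start), Cry1 on chr10:85185005-85185304 (minus strand), Per3 on chr4:151044616-151044915 (minus strand) and Arntl on chr7:113207261-113207560 (plus strand, its second start).
Per1: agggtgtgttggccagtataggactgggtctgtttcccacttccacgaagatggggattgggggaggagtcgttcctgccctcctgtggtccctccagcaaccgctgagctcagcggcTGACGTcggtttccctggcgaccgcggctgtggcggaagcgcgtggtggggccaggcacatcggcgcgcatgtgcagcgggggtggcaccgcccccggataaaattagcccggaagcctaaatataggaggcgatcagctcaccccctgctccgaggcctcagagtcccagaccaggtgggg
Cry1: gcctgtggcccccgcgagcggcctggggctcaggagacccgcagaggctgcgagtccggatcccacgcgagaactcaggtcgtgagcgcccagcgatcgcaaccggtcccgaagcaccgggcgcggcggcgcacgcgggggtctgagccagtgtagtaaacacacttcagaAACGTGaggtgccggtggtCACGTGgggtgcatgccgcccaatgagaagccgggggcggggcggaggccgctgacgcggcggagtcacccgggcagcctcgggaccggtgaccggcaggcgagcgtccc
Per3: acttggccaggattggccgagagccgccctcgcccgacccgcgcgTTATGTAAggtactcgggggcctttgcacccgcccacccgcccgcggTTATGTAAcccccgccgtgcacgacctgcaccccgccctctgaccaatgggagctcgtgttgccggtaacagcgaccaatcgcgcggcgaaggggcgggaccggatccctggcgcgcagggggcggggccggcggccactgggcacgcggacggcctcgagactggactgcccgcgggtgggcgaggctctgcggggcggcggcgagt
Arntl: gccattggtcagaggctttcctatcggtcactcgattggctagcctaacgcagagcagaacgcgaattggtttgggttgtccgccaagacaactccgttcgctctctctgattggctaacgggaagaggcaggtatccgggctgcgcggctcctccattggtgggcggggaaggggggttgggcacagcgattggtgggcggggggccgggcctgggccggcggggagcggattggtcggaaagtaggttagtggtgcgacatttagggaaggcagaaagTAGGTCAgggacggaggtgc
Matches were sought on both strands for CACGTG (E-box), CACGTT (E-box variant), TTATGTAA or TTACGTAA (D-box), TAGGTCA or TGGGTCA (ROR element), TGACGTCA (full CRE) and TGACGT, which every full CRE contains. The Per1 window held TGACGT with its first base at position -132, a match found in 7.51% of all 32851 promoter windows of this length. The Cry1 window held an E-box at -60, found in 7.15% of windows, and the E-box variant at -79, found in 4.68%. Per3 had D-box matches at -205 and -158, a motif in 1.06% of windows, and Arntl had a ROR element at 31 bases into the gene, a motif in 6.45%. Without Per2, which had no window, 9 clock genes had 13 windows. Of the 9 genes, 2 had an E-box (the other being Per1, at its first start) and 3 the variant (Cry1, Cry2 and Nr1d1). A D-box was found in 1, a ROR element in 1, the TGACGT match in 1 and the full CRE in 0. No window of Clock, Nr1d2 or Dbp held a match. A match describes the letters of the window and not a bound site.

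The arrays carried Cy3 intensity, which is compared here as log2 intensity and only within a feature, since features differ in brightness. Each gene was represented by its brightest feature. All 10 clock genes lay above the lower quartile of intensity (6.17 on the log2 scale) on all 15 arrays. The label of cortex was set beside its markers, and 13 of 13 measured cortical neuron markers lay above that quartile on every array. So did 12 of 12 striatal, 17 of 18 meningeal and 10 of 15 thalamic and hypothalamic markers. This check thus does not separate cortex from neighbouring tissue. Of 10 choroid plexus markers 1 did so, 1 (Slc4a5) lay under the quartile on every array, and the other 8 passed it on some arrays only. Markers of tissue beside the cortex were unequal between groups. The summed level of 18 meningeal markers, given as the mean deviation from each gene's mean, ran from -0.56 to -0.050 in SAMR1 and from 0.019 to 0.34 in sedentary SAMP8, without overlap, and from -0.0053 to 0.33 in exercised SAMP8. All 18 of those markers had a positive difference between the sedentary strains, and 1 passed the test (Lum), where 54.4% of all genes were positive and 3.03% passed. Between these strains the difference was also positive for 10 of 10 choroid plexus markers (median 0.77 on the log2 scale, 1 passed, Aqp1), for 13 of 15 thalamic and hypothalamic markers (median 0.42, 1 passed, Zic1) and for 10 of 12 striatal markers (median 0.19, 0 passed in limma, 2 at an unadjusted p under 0.05). The summed levels of these 3 lists overlapped between the strains. Between exercised SAMP8 and SAMR1, 16 of 18 meningeal markers were positive (median 0.39) and 5 were called higher in limma. For all genes 58.6% were positive and 2.8% called higher. There 8 of 10 choroid plexus markers were positive (1 called higher), as were 13 of 15 thalamic and hypothalamic markers (0 passed). Of 12 striatal markers 10 were negative (0 passed). After exercise 11 of 12 striatal markers had a negative difference (median -0.35), of which 0 passed in limma and 6 had an unadjusted p under 0.05, where 44.6% of all genes were negative and 7.08% had such a p. Striatal levels ran from 0.058 to 0.43 in sedentary and from -0.47 to 0.14 in exercised SAMP8. The part of these markers in the clock gene differences was not tested. The number of arrays limits the precision of all values. In whole tissue, fewer cells of a type and less RNA per cell cannot be told apart.

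**Figure D1:**
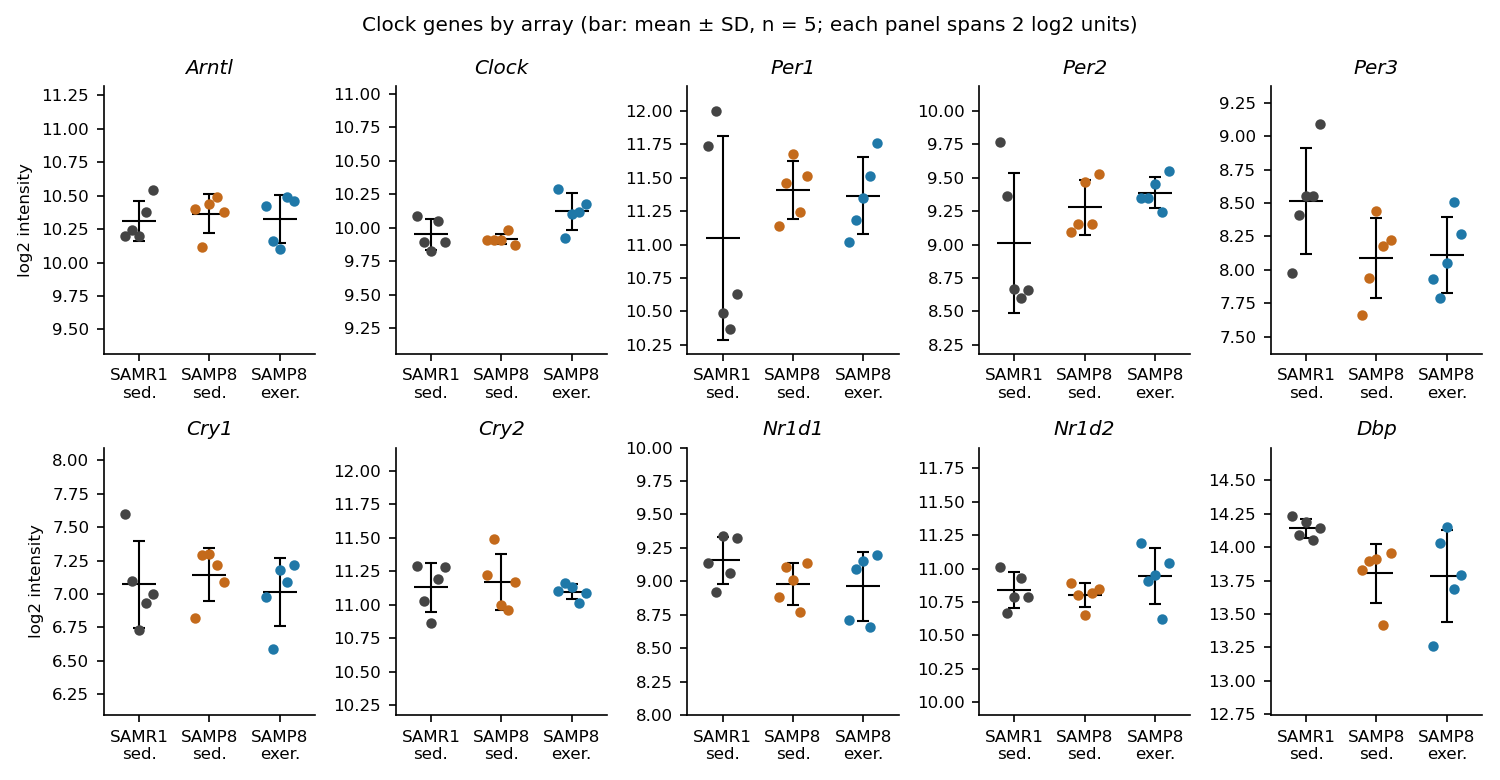
Log2 intensity of the 10 clock genes (vertical axis, 2 log2 units in each panel) by group (horizontal axis, 5 arrays each: sedentary SAMR1, sedentary SAMP8, exercised SAMP8). Points are arrays and bars are the mean ± SD; Per1 and Per2 each split the SAMR1 arrays into 2 high and 3 low ones, and all 5 SAMR1 values of Dbp lie above all 5 of sedentary SAMP8.

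The question of the first comparison was whether clock genes differed between the cortex of the 2 sedentary strains. In limma, 0 of the 10 clock genes passed an adjusted p of 0.05 over the 16401 genes, where 3.03% of all genes passed (1.85% higher and 1.18% lower in SAMP8). At an unadjusted p under 0.05 there were 2, Dbp and Per3, where 14.3% of all genes lay. Of the 10 differences 5 were positive and 5 negative, where 54.4% of all genes were positive and 45.6% negative, with a median of 0.0021 on the log2 scale, against a median of 0.019 over all genes.

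Dbp, a PAR-domain leucine zipper factor and a direct output of the clock, had the smallest p among them. Its log2 intensity was 14.23, 14.09, 14.19, 14.05 and 14.14 on SAMR1 replicates 1 to 5, and 13.83, 13.90, 13.91, 13.42 and 13.96 on sedentary SAMP8 replicates 6 to 10. Exercised SAMP8 replicates 11 to 15 had 13.26, 14.03, 14.15, 13.69 and 13.79. The SAMR1 arrays were thus tightly grouped and all above the sedentary SAMP8 arrays, whereas 2 of the exercised arrays reached into the SAMR1 range or just below it. The log2 difference between sedentary SAMP8 and SAMR1 was -0.33 ± 0.14 (SE; 95% interval -0.64 to -0.026), which is 1.26-fold lower, and limma's adjusted p of 0.3 did not pass. The exact two-sided permutation p of 5 against 5 arrays was 0.00794, the smallest it can give, unadjusted and 1 of 54 such tests (18 features in 3 comparisons). Among the 10 genes Dbp alone had groups that do not overlap, as did 4.57% of all genes (1.65% lower and 2.92% higher in SAMP8). Exercised SAMP8 differed from SAMR1 by -0.36 ± 0.14 (limma adjusted p = 0.199). Within groups Dbp and the meningeal marker level had r = 0.50 over 15 arrays (permutation p = 0.0438, adjusted p = 0.524 over 130 relations). The part of these markers in the Dbp difference was not tested.

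Per3, the PER paralog not required for rhythm in mice, was next. Its log2 intensity was 7.98, 8.41, 8.55, 8.55 and 9.09 in SAMR1 and 7.66, 7.94, 8.44, 8.18 and 8.22 in sedentary SAMP8, and the groups overlapped. In exercised SAMP8 it was 7.93, 7.79, 8.05, 8.51 and 8.27. The difference between the sedentary groups was -0.43 ± 0.19 (95% interval -0.85 to -0.015, limma adjusted p = 0.327), and it was -0.29 without SAMR1 replicate 5. Between exercised SAMP8 and SAMR1 it was -0.41 ± 0.19 (limma adjusted p = 0.283).

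Per1 and Per2, the light- and activity-responsive repressors, differed most among the SAMR1 arrays themselves. Per1 had a log2 intensity of 11.74 and 12.00 on SAMR1 replicates 1 and 2 and of 10.49, 10.37 and 10.63 on replicates 3, 4 and 5. Sedentary SAMP8 arrays had 11.14, 11.46, 11.68, 11.24 and 11.51, and exercised ones 11.02, 11.18, 11.35, 11.51 and 11.76. All 10 SAMP8 values thus lay in the gap between the high and the low SAMR1 arrays, except exercised replicate 15, which just passed SAMR1 replicate 1. For Per2 the SAMR1 values were 9.77, 9.36, 8.67, 8.60 and 8.66, with the same 2 arrays high and the same 3 low. Sedentary SAMP8 had 9.09, 9.15, 9.47, 9.15 and 9.53, and exercised SAMP8 9.35, 9.35, 9.45, 9.24 and 9.55. The SD in SAMR1 was 0.76 for Per1 and 0.52 for Per2, against 0.21 and 0.21 in sedentary and 0.29 and 0.12 in exercised SAMP8 (n = 5 each). The differences between sedentary SAMP8 and SAMR1 were 0.36 ± 0.28 for Per1 (95% interval -0.24 to 0.96, limma adjusted p = 0.612) and 0.27 ± 0.20 for Per2 (-0.15 to 0.68, 0.582). Without 1 array at a time the Per1 difference stayed between 0.19 and 0.60, and the Per2 difference between 0.16 and 0.46, with no pass. The dimmer Per2 feature gave -0.23.

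On their brightest features the remaining clock genes differed by less between the sedentary strains. Nr1d1, the heme-binding repressor of Arntl, had 9.14, 8.92, 9.34, 9.06 and 9.32 in SAMR1 and 8.88, 9.11, 9.01, 8.77 and 9.14 in sedentary SAMP8, overlapping, a difference of -0.17 ± 0.12 (limma adjusted p = 0.582). Its other features gave -0.12 and -0.025. Arntl, the obligate partner of CLOCK, had 10.31 ± 0.15 in SAMR1 and 10.37 ± 0.15 in sedentary SAMP8 (mean ± SD, n = 5 each), a difference of 0.056 with a 95% interval from -0.16 to 0.28. For Clock the interval ran from -0.20 to 0.13, for Nr1d2 from -0.25 to 0.18, for Cry2 from -0.19 to 0.26 and for Cry1 from -0.27 to 0.41. Dimmer features of Clock gave 0.012, -0.41 (limma adjusted p = 0.249 over all features, exact permutation p = 0.0397, unadjusted) and 0.23. The dimmer Cry1 feature gave 0.32 (limma adjusted p = 0.37 over all features) and the dimmer Cry2 feature -0.0048.

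**Figure D2:**
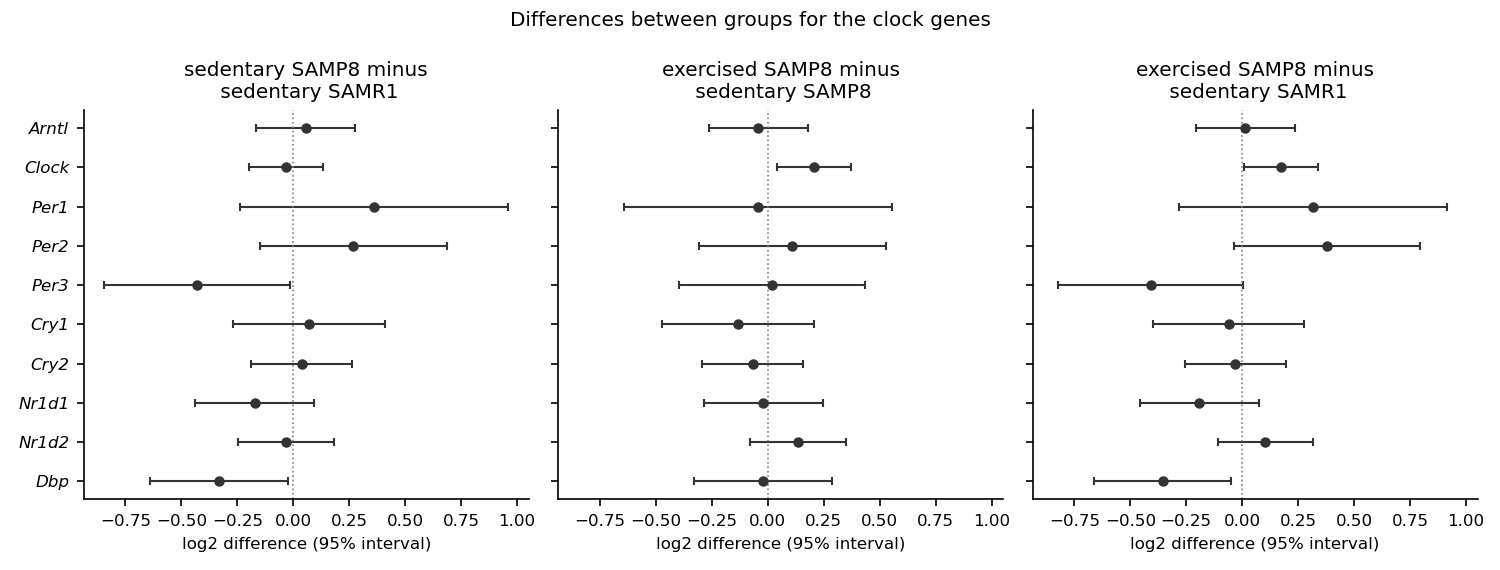
Log2 difference of each clock gene (rows) in the 3 comparisons (panels), from limma over all 15 arrays; points are the estimates and bars their 95% intervals before any adjustment. The interval is narrowest for Clock and widest for Per1, and those of Dbp and Per3 end just below 0 in the comparison of sedentary strains.

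The second comparison asked whether exercise changed clock genes in SAMP8. In limma 0 of the 10 passed, as did 0% of all genes, and 1 of 10 had an unadjusted p under 0.05, where 7.08% of all genes did. The differences of 4 genes were positive and of 6 negative, where 55.4% of all genes were positive and 44.6% negative. None of the 10 had groups that do not overlap, against 1.1% of all genes (0.732% higher and 0.366% lower). The gene with the smallest p was Clock, the histone acetyltransferase subunit of the activating dimer. Its log2 intensity was 9.91, 9.91, 9.91, 9.98 and 9.87 in sedentary SAMP8 and 10.29, 9.92, 10.10, 10.12 and 10.18 in exercised SAMP8, where 4 of 5 exercised arrays lay above all sedentary ones. SAMR1 had 10.09, 9.89, 9.83, 10.05 and 9.89. The difference after exercise was 0.21 ± 0.078 (95% interval 0.040 to 0.37, limma adjusted p = 0.646; exact permutation p = 0.0159, unadjusted). The other 3 Clock features gave 0.12, -0.13 and -0.20, and the mean of all 4 gave -0.0026, so the direction held for 2 of 4 features. Exercised SAMP8 against SAMR1 gave 0.17 ± 0.078 on the brightest Clock feature (limma adjusted p = 0.254) and -0.54 on the third (adjusted p = 0.0831 over all features), which lay under the lower quartile on 2 of 5 exercised arrays.

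For the other clock genes the exercise difference was between -0.13 (Cry1) and 0.14 (Nr1d2), each with an interval that included 0. Dbp had -0.022 (95% interval -0.33 to 0.29), Per1 -0.044 (-0.64 to 0.55), Per2 0.11 (-0.31 to 0.53) and Arntl -0.042 (-0.26 to 0.18). The median over the 10 genes was -0.021, against 0.020 over all genes. Nr1d2, the second REV-ERB, had 10.89, 10.80, 10.65, 10.82 and 10.85 in sedentary and 11.19, 10.91, 10.95, 10.62 and 11.04 in exercised SAMP8, with overlapping groups (0.14 ± 0.10, limma adjusted p = 0.785).

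In the third comparison, exercised SAMP8 against sedentary SAMR1, 0 of 10 clock genes passed in limma, where 4.26% of all genes passed (2.8% higher and 1.45% lower), and 2 (Dbp and Clock) had an unadjusted p under 0.05, where 18.2% of all genes did. Differences were positive for 5 and negative for 5, where 58.6% of all genes were positive and 41.4% negative. None of the 10 had groups that do not overlap, against 5.8% of all genes (3.96% higher and 1.84% lower). The 10 differences ran from -0.41 for Per3 to 0.38 for Per2 (± 0.20, adjusted p = 0.327), which was 0.14 as the mean of both Per2 features. This comparison shares the SAMR1 arrays with the first and the exercised arrays with the second, so its values do not stand apart from theirs. The dimmer Cry1 feature gave 0.41 (adjusted p = 0.175 over all features; exact permutation p = 0.0159, unadjusted), against -0.061 on the brighter one.

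Features of the same clock gene followed each other loosely at most. After each group's mean was removed, the brightest and the next feature correlated at 0.48 for Nr1d1, 0.38 for Per2, 0.32 for Cry2, 0.17 for Clock and 0.14 for Cry1 over 15 arrays, as a description. The group means of these next features ran from 6.19 to 7.69 on the log2 scale, nearer the lower quartile. Values below rest on the brightest feature of each gene.

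Clock genes differed in how far arrays of the same group lay apart. The pooled SD within groups was 0.49 for Per1, larger than that of all but 8.42% of genes, and 0.33 for both Per2 and Per3. It was 0.24 for Dbp, 0.20 for Nr1d1 and 0.16 for Arntl, beside a median of 0.19 over all genes. Clock was the steadiest at 0.10, and 93.3% of genes varied more.

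Within groups 2 patterns were read from the matrix of clock gene correlations, as a description. The correlations are over 15 arrays after removal of each group's mean, and 45 pairs were tested. Of these 0 passed after adjustment over the pairs, and 9 had an unadjusted permutation p under 0.05. In the first pattern Per1 and Per2 varied together (r = 0.86, permutation p = 0.00972, adjusted p = 0.173; rho = 0.84, permutation p = 0.00799), and r was 0.83 without the 2 arrays farthest from the Per1 median. Cry1, the strong transcriptional repressor, followed both, with r = 0.65 to Per1 (permutation p = 0.0154; rho = 0.71) and r = 0.68 to Per2 (permutation p = 0.012; rho = 0.58). Adjusted p was 0.173 for each. In 6 alternative settings, apart from leaving out 1 array, r ran from 0.53 to 0.65 for Per1 with Cry1. For Per2 with Cry1 it ran from 0.16 to 0.68. Since the SAMR1 arrays form 2 clusters in Per1, the 10 SAMP8 arrays were also taken alone, an alternative added after the data were seen. There r was 0.62 for Per1 with Per2 (permutation p = 0.0572) and 0.64 for Per1 with Cry1 (0.075), and 0.34 for Per2 with Cry1 (0.342). In these arrays Per3 also went with Per1 (r = 0.75, permutation p = 0.025, adjusted p = 0.333) and with Cry1 (r = 0.68, permutation p = 0.0444, adjusted p = 0.333). Over 15 arrays these pairs had -0.16 and 0.015. In the SAMP8 arrays these genes also ran against levels of cell type markers. Per3 had r = -0.83 with endothelial markers (permutation p = 0.00431, adjusted p = 0.295 over 130 relations). Per1 had -0.75 with oligodendrocyte markers (0.0144, 0.295) and Cry1 -0.67 with endothelial markers (0.0418, 0.448). Over 15 arrays these relations had -0.18, -0.50 and -0.71. The part of these markers in the clock gene correlations was not tested.

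**Figure D3:**
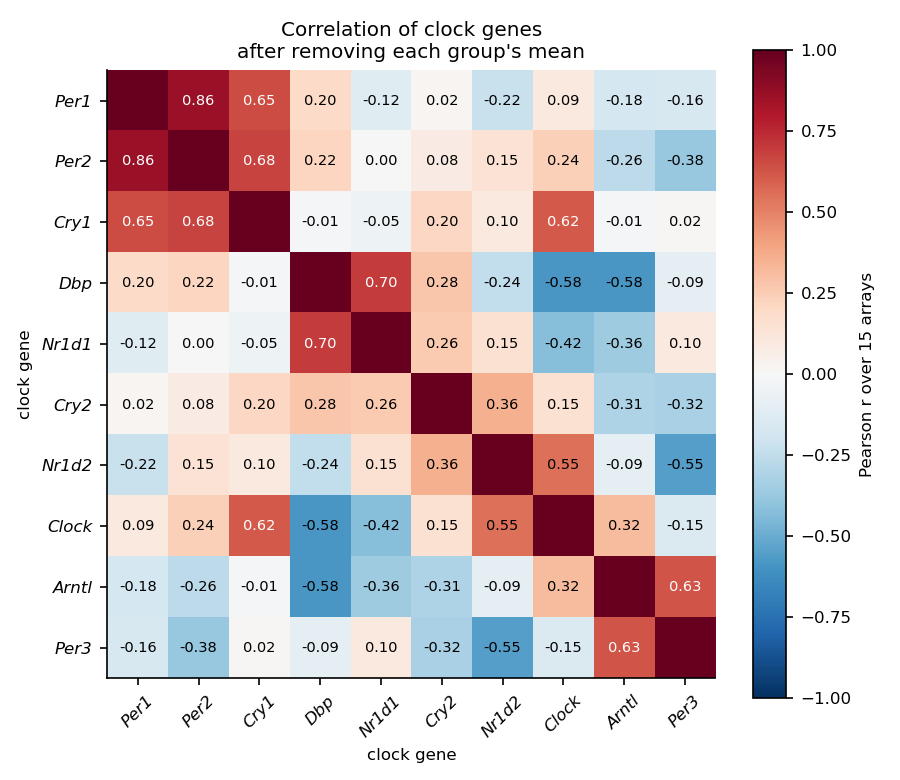
Pearson r between pairs of clock genes (rows and columns) over 15 arrays after each group's mean was removed; red is positive and blue negative. Per1, Per2 and Cry1 form a positive block, and Dbp is positive with Nr1d1 (0.70) and negative with Arntl and Clock (-0.58 each).

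The second pattern set Dbp against Arntl. Dbp and Nr1d1 correlated positively (r = 0.70, permutation p = 0.0103, adjusted p = 0.173, and rho = 0.62, permutation p = 0.0486). It was r = 0.65 without the 2 arrays farthest from the Nr1d1 median. Over the SAMP8 arrays alone r was 0.77 (rho = 0.65, permutation p = 0.123). In the same 6 alternative settings r ran from 0.35 to 0.77. Arntl and Dbp correlated negatively (r = -0.58, permutation p = 0.0489, adjusted p = 0.245; rho = -0.66, permutation p = 0.0231), with -0.48 without the 2 farthest arrays and -0.65 in SAMP8. Arntl and Per3 correlated positively (r = 0.63, permutation p = 0.0215, adjusted p = 0.193; rho = 0.65), with 0.71 without the 2 farthest arrays. Clock and Dbp had r = -0.58, which was -0.26 without the 2 arrays farthest from the Clock median and -0.76 over the SAMP8 arrays alone, where it was -0.70 without the 2 farthest (rho = -0.54 over 15 arrays, permutation p = 0.0433, and -0.89 in SAMP8, permutation p = 0.00516). The other 2 pairs with an unadjusted p under 0.05 were Clock with Cry1 (0.62) and Per3 with Nr1d2 (-0.55). In the 6 alternative settings they ran from 0.011 to 0.62 and from -0.61 to -0.47. In the SAMP8 arrays alone 1 pair passed, Arntl with Cry2 (r = -0.74, adjusted p = 0.0301, rho = -0.77 with adjusted p = 0.0862), against -0.31 over all 15 arrays. Dbp was near 0 with Per3 (-0.09) and with Cry1 (-0.013).

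Genes outside the 10 with the most similar pattern were found by r with Dbp, with Arntl and, chosen after its values were seen, with Per1, among genes brighter on average than the lower quartile; these are descriptions over 15 arrays. Of 13193 genes, Tspan4 was the most like Dbp (r = 0.90, 0.75 without the 2 arrays farthest from the Dbp median and 0.93 in SAMP8). Tspan4 is a tetraspanin that stood on the list of clock output genes. It had log2 intensities of 11.22, 11.18, 11.34, 11.15 and 11.32 in SAMR1, 10.98, 11.00, 11.16, 10.81 and 11.01 in sedentary SAMP8, and 10.65, 11.21, 11.15, 10.96 and 10.99 in exercised SAMP8. The 2 arrays lowest in Tspan4, SAMP8 replicates 9 and 11, were also lowest in Dbp. Its strain difference was -0.25 ± 0.10 (limma adjusted p = 0.253). Next came Ilk, the integrin-linked kinase (0.86), and Lxn, the carboxypeptidase inhibitor latexin (0.85), followed by Cyb5rl and Coa8 (0.85 each). At the other end stood Oga, the enzyme that removes O-GlcNAc (-0.88), Zfp286, Dip2c, Krit1 and the endoplasmic reticulum chaperone Hsp90b1 (-0.81). Without the 2 arrays farthest from the Dbp median, r after Tspan4 ran from 0.64 (Cyb5rl) to 0.75 (Lxn). At the other end it ran from -0.75 (Zfp286) to -0.50 (Dip2c) and -0.48 (Hsp90b1), with -0.67 for Oga. Nr1d1 ranked 128 of these 13193 genes by r with Dbp.

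**Figure D4:**
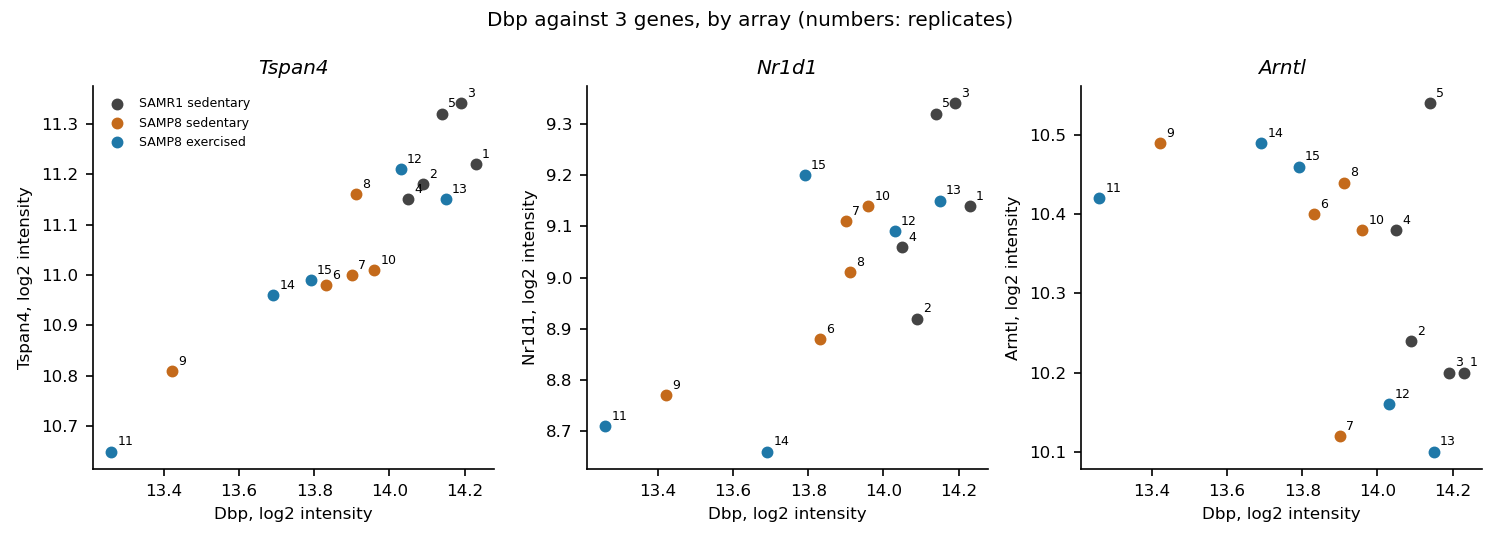
Log2 intensity of Tspan4, Nr1d1 and Arntl (vertical axes) against that of Dbp (horizontal axes) on 15 arrays, coloured by group and numbered by replicate. Tspan4 and Nr1d1 are higher where Dbp is higher, and SAMP8 replicates 9 and 11 are lowest in both Dbp and Tspan4.

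Arntl was most like Tbrg1 (r = 0.87), Plekha6, Agfg1, the DNA repair phosphodiesterase Tdp2 and Armcx1 (all 0.85). It was least like Procr, the protein C receptor of endothelium (-0.88), Cpt1b, a carnitine palmitoyltransferase (-0.84), Wfdc18, Cemip2 and Fam110b (-0.81). The level of thalamic and hypothalamic markers also ran against Arntl (r = -0.75, permutation p = 0.00274, adjusted p = 0.265 over 130 relations; rho = -0.79; -0.58 without the 2 farthest arrays). No clock gene stood among the 5 genes at either end for Dbp or Arntl.

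Per1 had as its closest genes Ccnd2, a cyclin (r = 0.96), and 4 genes that respond to stimulation. These were Nr4a1, an orphan nuclear receptor (0.95), Bhlhe40, an E-box repressor that also acts in the clock (0.95), Dusp6, a phosphatase of ERK kinases (0.94), and Fos (0.94). Per2 ranked 29 and Cry1 ranked 271 among these genes. In the SAMP8 arrays alone r with Per1 was 0.86 for Ccnd2, 0.84 for Nr4a1, 0.79 for Bhlhe40, 0.68 for Dusp6 and 0.69 for Fos. Fos had a log2 intensity of 9.83 and 10.02 on SAMR1 replicates 1 and 2, and of 6.40, 6.88 and 7.34 on replicates 3 to 5. The mean deviation of 25 activity-induced genes was 0.55 and 0.66 on the first 2 arrays and -1.02, -0.88 and -0.55 on the other 3, while the 10 SAMP8 arrays lay between -0.22 and 0.34. The SAMR1 arrays with high Per1 and Per2 were thus those with high activity-induced genes. Over 15 arrays Per1 correlated with that mean at r = 0.92 (permutation p = 0.00464, adjusted p = 0.265 over 130 relations; rho = 0.79, permutation p = 0.0218), and at 0.80 without the 2 arrays farthest from the Per1 median, but the SAMR1 arrays form 2 clusters. In the SAMP8 arrays alone r was 0.50 (permutation p = 0.226), and for Per2 it was -0.09 (0.778), against 0.80 over 15 arrays. Of the 25 activity-induced genes 21 had a positive difference between the sedentary strains and 0 passed in limma (3 at an unadjusted p under 0.05), where 54.4% of all genes were positive, 3.03% passed and 14.3% had such a p.

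**Figure D5:**
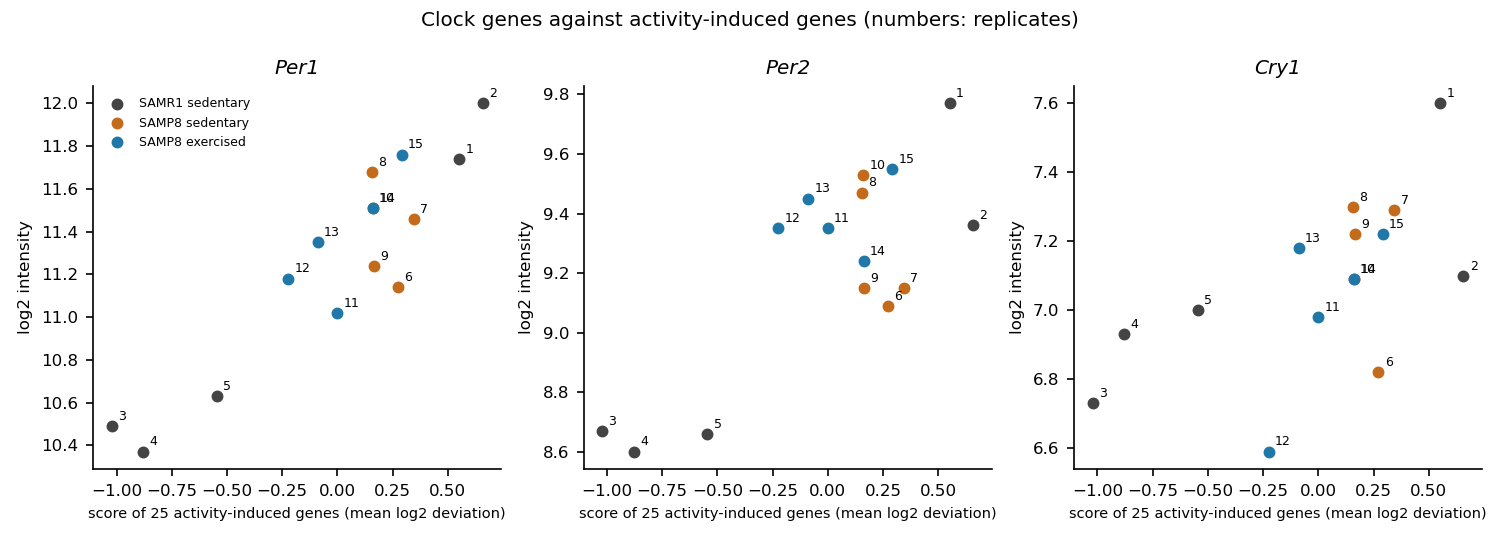
Log2 intensity of Per1, Per2 and Cry1 (vertical axes) against the mean log2 deviation of 25 activity-induced genes (horizontal axes) on 15 arrays, coloured by group and numbered by replicate. SAMR1 replicates 3, 4 and 5 lie apart at the low end of both axes for Per1 and Per2.

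Further regulators of the loop were read from a list of 24, of which 22 were measured. Between the sedentary strains 0 of 22 passed in limma and 5 had an unadjusted p under 0.05, where 3.03% and 14.3% of all genes did. Nfil3, the repressor that competes with DBP at D-boxes, had 0.42 ± 0.17 (limma adjusted p = 0.255), the kinase Csnk1e, which phosphorylates PER proteins, -0.21 ± 0.09 (0.292; -0.071 as the mean of its features), and Rorb, a ROR-family nuclear receptor, -0.33 ± 0.14 (0.307). Nfil3 thus lay on the opposite side of 0 from Dbp, and as a mean of all its features its difference was 0.48 and passed (adjusted p = 0.0294). The other PAR-domain factors, Tef and Hlf, had -0.13 ± 0.09 and -0.14 ± 0.08 (adjusted p = 0.559 and 0.480). After exercise 0 of 22 passed in limma and 5 had an unadjusted p under 0.05, where 0% and 7.08% of all genes did. Among these were Rorb (-0.53 ± 0.14, limma adjusted p = 0.521), the deacetylase Sirt1 (-0.40 ± 0.12, 0.557) and the kinase Csnk1d (0.21 ± 0.08, 0.676). As means of their features these differences were -0.20 for Rorb, -0.19 for Sirt1 and -0.049 for Csnk1d.

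Between exercised SAMP8 and SAMR1, 1 regulator rose and 1 fell, while 20 of 22 did not pass, where 2.8% of all genes were called higher and 1.45% lower. Rorb, which is also a marker of cortical layer 4 neurons and binds ROR elements, had 7.62, 7.47, 7.61, 7.89 and 7.62 in SAMR1. It had 7.43, 7.49, 7.02, 7.45 and 7.16 in sedentary SAMP8 and 7.06, 6.92, 6.98, 6.69 and 6.26 in exercised SAMP8. The exercised values all lay below the SAMR1 values, and Rorb fell by 0.86 ± 0.14 on the log2 scale (limma adjusted p = 0.00237). It passed in every alternative run, at -0.93 to -0.49. Arntl, whose printed window holds a ROR element match, had a difference of 0.014 in the same comparison. A link between Rorb and Arntl was not tested. Csnk2a1, the catalytic subunit of casein kinase 2, had 11.03, 11.25, 10.98, 11.35 and 10.98 in SAMR1 and 11.49, 11.36, 11.44, 11.41 and 11.60 in exercised SAMP8, without overlap. It rose by 0.34 ± 0.09 (limma adjusted p = 0.0451), but lost the call without any 1 of 12 of the 15 arrays and had 0.031 (0.913) as the mean of its features.

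Of 15 measured clock output genes, 1 rose between the sedentary strains, 0 fell and 14 did not pass, where 1.85% of all genes were called higher and 1.18% lower. Fkbp5, an FK506-binding co-chaperone of the glucocorticoid receptor, had 7.98, 7.80, 8.00, 7.60 and 7.71 in SAMR1 and 8.16, 8.35, 8.27, 8.37 and 8.12 in sedentary SAMP8, without overlap. It rose by 0.43 ± 0.10 (limma adjusted p = 0.0238), and the call was lost without SAMR1 replicate 4 or 5 or SAMP8 replicate 7, 8 or 9 (0.38 to 0.43, adjusted p up to 0.0704) and with the mean of its features (0.28, adjusted p = 0.134). Rbm3, a cold-induced RNA-binding protein, had -0.67 ± 0.20 (limma adjusted p = 0.0993) and Cdkn1a, the cell cycle inhibitor p21, 0.64 ± 0.21 (0.140). Rbm3 passed without SAMP8 replicate 8 (-0.84, limma adjusted p = 0.0138) and Cdkn1a without SAMP8 replicate 7 (0.82, 0.0247). Without any other single array neither passed, with limma adjusted p up to 0.209 for Rbm3 and 0.269 for Cdkn1a. In the other comparisons 0 of 15 passed in limma, with 2 after exercise and 4 against SAMR1 at an unadjusted p under 0.05, where 7.08% and 18.2% of all genes lay. The smallest p after exercise belonged to Pim3, a kinase (-0.22 ± 0.09, limma adjusted p = 0.663), and against SAMR1 to Lonrf3, a ring finger protein (0.49 ± 0.15, 0.0811). Lonrf3 passed without SAMR1 replicate 2 (0.60, limma adjusted p = 0.0189), with array weights (0.54, 0.0386) and without the dimmest 30% of genes. Without any other single array it did not pass, with differences down to 0.41 and limma adjusted p up to 0.188. In the remaining settings the difference went down to 0.34 and the adjusted p up to 0.237.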

How the data were processed

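Cortex RNA was measured on 15 one-colour Agilent arrays, grouped by their labels. The deposited value table holds intensity on a linear scale whose columns share nearly the same distribution (96.2% of ranks within 0.05 log2), so the authors' values were used as given and log2 was taken. The authors used limma, per the submitters' processing notes; the sources used here do not give its settings, the array build, slides or scans. Of 45220 features listed, 34479 had values, and 27968 of these had 1 gene symbol, 38 several and 6473 none. The feature brightest on average stood for each of 16401 genes. Differences came from limma 3.58.1 in R 4.3.3, fitted as 3 group means with eBayes moderation across the 15 arrays, with Benjamini-Hochberg adjustment over all genes and a threshold of 0.05. Exact two-sided permutation tests were also run in R. Correlations, with 100000 permutations of values centred on group means, used numpy 2.4.6, pandas 2.3.3 and scipy 1.17.1 in Python 3.11.15, and figures matplotlib 3.10.9. Genes outside the 10 were named as those of a list that passed in a comparison or else up to 3 with its smallest p-values, and the 5 most and least like Dbp and Arntl; Per1, Tef, Hlf, Fos and the single values given beside them were added after values were seen. The members and lists were chosen with earlier results of these data known. Scripts were tested on simulated data. P-values measure the spread between these arrays, whose origin in separate animals is stated only as biological replication.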

Additional observations from a re-analysis of the deposited data

Results flagged for a closer look

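Dbp on sedentary SAMP8 replicate 9 was flagged because it stood apart from its group: its log2 intensity was 13.42, while the other 4 arrays lay between 13.83 and 13.96, a gap of 0.77 of the group's range against a critical value of 0.71. It was the 1 flag among 39 groups of 5 arrays tested, and chance alone flags about 1 group in 20. Without this array the difference in Dbp between sedentary SAMP8 and SAMR1 was -0.24 (limma adjusted p = 0.523), against -0.33 with it.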

How the results depend on the processing

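None of the 30 clock gene differences passed an adjusted p of 0.05 in limma under any of 23 alternatives (690 values, smallest adjusted p 0.0561, for Per2 in exercised SAMP8 against SAMR1 without SAMR1 replicate 1). The sign turned in 43 values of 15 differences. With the mean of a gene's features, the exercise difference was -0.0026 for Clock, 0.0094 for Nr1d1 and -0.049 for Csnk1d, and exercised SAMP8 against SAMR1 gave -0.054 for Clock and 0.17 for Cry1. With array weights, the exercise difference was -0.0024 for Per3, 0.016 for Nr1d1 and 0.053 for Dbp, and Arntl against SAMR1 was -0.017. Leaving out 1 array at a time, the comparison of sedentary strains ran from -0.065 to 0.0015 for Clock, -0.014 to 0.20 for Cry1, -0.044 to 0.089 for Cry2 and -0.074 to 0.010 for Nr1d2. The exercise difference ran from -0.10 to 0.014 for Arntl, -0.14 to 0.042 for Per1, -0.086 to 0.11 for Per3, -0.12 to 0.013 for Cry2, -0.080 to 0.055 for Nr1d1 and -0.12 to 0.11 for Dbp. Exercised SAMP8 against SAMR1 ran from -0.028 to 0.070 for Arntl, -0.15 to 0.071 for Cry1 and -0.097 to 0.0090 for Cry2. The cause was not tested. With every feature tested by itself, counts were out of 34479 features and not out of 16401 genes. Between sedentary strains 515 were then higher and 386 lower (303 and 194 as genes). In exercised SAMP8 against SAMR1, 480 were lower (238 as genes). Without 1 array, 306 to 554 genes were higher in that comparison (460 with all; 306 without SAMR1 replicate 5), and 0 to 3 were lower after exercise (3 without exercised replicate 12). Of the 45 clock gene pairs 2 passed when values were not centred on group means, and 1 with only the 10 SAMP8 arrays, chosen after seeing the data. No paired analysis was possible because the groups share no replicate numbers. Clock, Cry1 and Per2 features near the lower quartile limit what their dimmer probes show.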
